A study of Mus musculus with 21 samples.

Results

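The transcripts described here are 34 genes of heart muscle, read in macrophages sorted from mouse hearts and, for reference, in monocytes sorted from spleens. The genes were chosen by name for their known use in cardiomyocytes and were matched by symbol, and all 34 stood among the 27179 gene IDs of the count table. RNA had been sequenced from 21 libraries of C57BL/6 mouse cells, 3 in each of 7 groups. The cardiac macrophages came from independent pools of mice challenged with the Candida albicans water-soluble complex (CAWS), which induces a model of Kawasaki disease, and from independent pools of naive mice. R1 and R2 macrophages were negative for the chemokine receptor Ccr2 and differed in MHC-II, low in R1 and high in R2, while R3 macrophages were Ccr2-positive with high MHC-II. The groups were thus CAWS R1, CAWS R2, CAWS R3, naive R1, naive R2, naive R3 and Ccr2-positive splenic monocytes of naive mice. No transgene or knockout is named in the labels, and the labels used here give no age or sex. Each library is a pool of mice, so spreads within a group are spreads between pools. The labels state that each pool was divided into the 3 populations, so R1, R2 and R3 libraries of a treatment share hearts. The main tests did not pair them, and a block for the pool was run as an alternative.

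Cardiomyocytes contract through sarcomeres, in which myosin thick filaments pull on thin filaments of actin, tropomyosin and troponin between the Z-discs. Calcium released from the sarcoplasmic reticulum through the ryanodine receptor starts each beat, and the calcium pump SERCA2 returns it. Macrophages do not build sarcomeres. In the heart they lie between cardiomyocytes and are known to take up material that these cells release, including whole organelles, and tissue digestion before sorting sets RNA free from broken cells. Whether the reads described here came from uptake, from RNA carried over in the sort or from other cells was not tested.

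The libraries held 12800136 to 23006155 counts (median 16763449), and 13275 genes were tested, among them 33 of the 34 heart muscle genes. The gene that was not tested was Nppb, with 0 to 6 counts per library. Levels are given as CPM, the usual depth-scaled count, on library sizes adjusted by TMM scaling. The labels of the cells were read against some macrophage and monocyte genes. A list of 10 markers of both cell types summed to 57880 CPM on average in the monocytes. In the macrophage groups its sum averaged 24013 to 29041 CPM. Mertk, a receptor for dying cells and a macrophage marker, averaged 69.9 to 149 CPM in the 6 macrophage groups and 0.856 CPM in the monocytes. Ly6c2, a marker of classical monocytes, averaged 0.0526 to 6.91 CPM in the macrophage groups and 863 CPM in the monocytes. Ccr2 averaged 3665 CPM in CAWS R3 and 2389 CPM in naive R3, against 6.58 to 231 CPM in the R1 and R2 groups of both treatments. In bulk samples such as these, fewer cells that hold a transcript and less of it per cell cannot be told apart.

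Reads of near-identical genes cannot always be assigned, and 2 pairs among the 34 genes show how far they can. Cardiac actin (Actc1) and skeletal actin (Acta1) are made in heart and in skeletal muscle, and the alpha (Myh6) and beta (Myh7) myosin heavy chains are the fast and slow motors of the heart. Myh6 (chr14:54941921-54968017) and Myh7 (chr14:54970684-54994626) are neighbours on chromosome 14 of mm10, while Actc1 is on chromosome 2 and Acta1 on chromosome 8. Their first 90 coding bases are shown 5′ to 3′ from GENCODE vM21 transcripts, with capitals at the bases that differ within the pair.
Actc1: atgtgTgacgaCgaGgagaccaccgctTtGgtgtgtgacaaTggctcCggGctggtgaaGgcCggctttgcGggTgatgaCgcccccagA
Acta1: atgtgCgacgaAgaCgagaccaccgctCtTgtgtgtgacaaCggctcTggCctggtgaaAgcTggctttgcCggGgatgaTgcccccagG
Myh6: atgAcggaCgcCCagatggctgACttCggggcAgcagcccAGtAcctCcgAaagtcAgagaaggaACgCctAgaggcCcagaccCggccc
Myh7: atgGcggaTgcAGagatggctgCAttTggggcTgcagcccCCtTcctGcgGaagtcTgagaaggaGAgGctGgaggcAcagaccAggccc
The actins differ at 14 of these 90 bases, are 86.2% identical over 1134 coding bases, and have no stretch longer than 29 bases in common. The myosins differ at 20 of the 90 bases and are 91.7% identical over 5805 compared bases, but they share an identical run of 245 bases. Of all 50-base windows of the Myh6 transcript, 22.6% also occur in Myh7. No 50-base window of Actc1 occurs in another gene. Shared windows made up 60.3% of Pln, 53.4% of Nppa, 37.3% of Fabp3 and 34% of Mb, mostly with predicted genes or pseudogenes, so the counts of these 4 genes could be split by the authors' counting. Actc1, Myl2, Myl3, Tnnt2, Tnni3 and Tnnc1 had at most 2.14% of their windows in another gene.

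Of the 34 genes, 3 were also abundant in splenic monocytes, with over 100 counts in each monocyte library. They were Atp2a2, which encodes SERCA2, Tpm1, which encodes a tropomyosin also made in non-muscle cells, and Eno3, a muscle form of the glycolytic enzyme enolase. The other 31 genes are summed separately below, a choice made after their values were seen. In each macrophage library 27 to 31 of the 31 had at least 1 read, and together they took 1286 to 5577 counts, or 0.00909% to 0.0263% of the library. In the monocyte libraries 11 to 12 of the 31 had a read, and together they took 41 to 48 counts, or 0.000235% to 0.000291%.

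The summed level of the 31 genes was a low trace in each macrophage library and differed by population. In CAWS R1 it was 146, 153 and 177 CPM, and in naive R1 it was 117, 93.3 and 85.8 CPM. In CAWS R2 it was 261, 188 and 223 CPM, and in naive R2 it was 252, 186 and 202 CPM. In CAWS R3 it was 111, 162 and 170 CPM, and in naive R3 it was 249, 203 and 207 CPM. The 3 naive R1 libraries were lower than each library of naive R2 and naive R3, the 3 CAWS R1 libraries lay above naive R1, and the 3 CAWS R3 libraries lay below naive R3. The CAWS R2 and naive R2 libraries overlapped. The splenic monocytes had 3.09, 2.80 and 2.47 CPM, far under each macrophage library. As group means, CAWS R1 had 159 ± 16.3 CPM, CAWS R2 224 ± 36.7, CAWS R3 148 ± 31.8, naive R1 98.7 ± 16.3, naive R2 213 ± 34.4, naive R3 219 ± 25.7 and monocytes 2.78 ± 0.31 (SD, n = 3 each). No test was made on the sums. With Atp2a2, Tpm1 and Eno3 included, the monocytes reached 252 CPM on average and the macrophage groups 361 to 514 CPM.

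**Figure D1:**
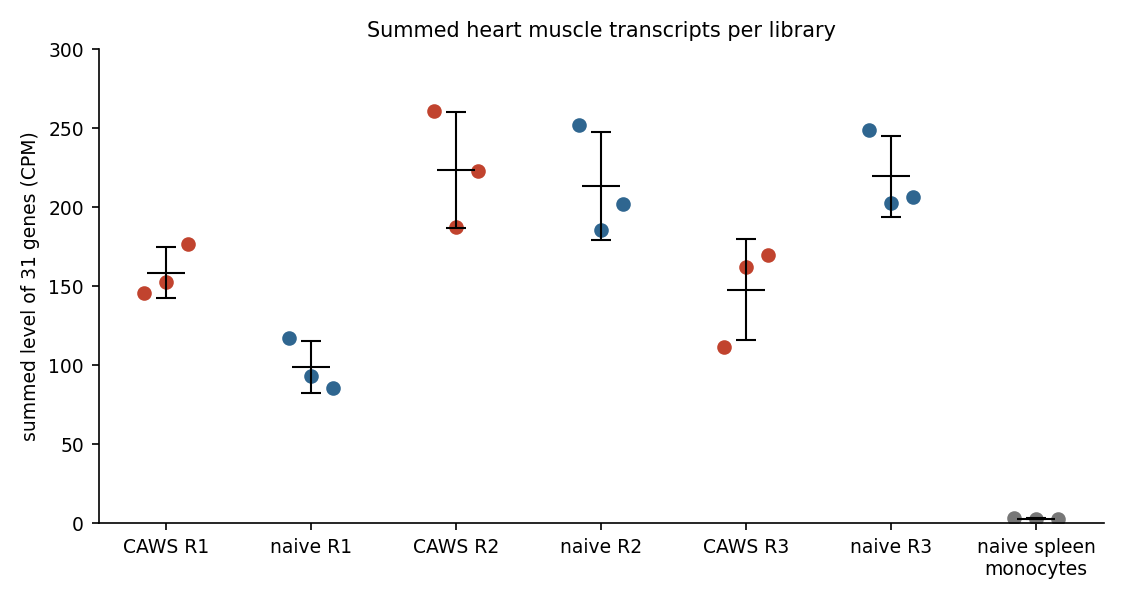
Summed level, in CPM, of the 31 heart muscle genes that are not abundant in monocytes, in each of the 21 libraries. Points are libraries and the bars show the mean and SD of 3; naive R1 has the lowest macrophage mean, at 98.7 CPM, and the monocytes have 2.78 CPM.

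The macrophages were first set against the splenic monocytes, which were taken from the spleen and not from heart tissue. Of the 34 genes, those that passed the test as higher than in monocytes numbered 30 for CAWS R1, 28 for CAWS R2, 28 for CAWS R3, 26 for naive R1, 28 for naive R2 and 30 for naive R3. Of all genes tested, the shares that passed as higher were 33% for CAWS R1, 32.4% for CAWS R2, 24.8% for CAWS R3, 32.5% for naive R1, 33.1% for naive R2 and 31.9% for naive R3. The median log2 fold change over the tested heart muscle genes lay between 5.90 and 6.76 in the 6 comparisons, against 0.01 to 0.08 over all genes tested. These comparisons share the monocyte libraries, and genes absent from monocytes passed the filter on low counts through the macrophages alone, so the counts of passing genes describe and do not support. In each group except CAWS R1, Eno3 was the 1 gene that passed as lower, and the share of all genes that did so was not counted.

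Among the myosin genes, Myl2, the ventricular regulatory light chain, averaged 17.9, 25.2 and 18.1 CPM in CAWS R1, R2 and R3, 11.2, 26.9 and 23.7 CPM in naive R1, R2 and R3, and 0.0374 CPM in monocytes. With 2 reads in all monocyte libraries together, its ratio over monocytes ran from 273 in naive R1 (95% exact interval 75.1 to 2256) to 644 in naive R2 (178 to 5322). Myl3, the ventricular essential light chain, and Myh6 had no read in monocytes. Over a floor of 3 counts in the monocyte group, Myl3 was at least 90.2-fold to at least 248-fold higher and Myh6 at least 42.8-fold to at least 166-fold higher, depending on the macrophage group. Myh7, which falls after birth in mouse ventricles, held 0 to 22 counts per library and was at least 3.34-fold to at least 12.2-fold higher. The lowest bound came from 0, 11 and 2 counts in naive R2 and the highest from 17, 22 and 0 counts in naive R1. Both groups thus had a library with no Myh7 read, as in monocytes. In each of naive R2, CAWS R2 and CAWS R3, 1 of the 7 myosin genes did not pass. In CAWS R3 this was Myh7 (edgeR adjusted p = 0.103). Myl4 and Myl7, the atrial light chains, had ratios of 80.6 to 173 and 42.0 to 115, each over 1 monocyte read. Mybpc3, which binds and tunes the thick filament, was 6.01 to 13 times its monocyte level. In naive R1 the libraries held 48, 1 and 28 counts of Mybpc3 and overlapped the monocytes.

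Among thin filament genes, Actc1 had 115 to 296 times the monocyte level and Tnni3, the inhibitory troponin of the heart, 74.0 to 236 times, each over 3 monocyte reads. Tnnt2, the troponin that binds tropomyosin, was at least 113-fold to at least 259-fold higher, and Tnnc1, the calcium sensor of the troponin complex, at least 33.7-fold to at least 87.6-fold higher. Tpm1 had 2.02 to 2.95 times its monocyte level. Acta1 averaged 0.926 CPM in monocytes and its ratio was 1.23 to 4.59. It overlapped the monocytes and did not pass in naive R1 (edgeR adjusted p = 0.733) or in CAWS R1 (adjusted p = 0.161).

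Among Z-disc and cytoskeletal genes, Myoz2, a calcineurin-binding Z-disc protein, and Ankrd1, a stretch-responsive cofactor, were at 0 in monocytes and at least 75.3-fold to at least 152-fold and at least 25.0-fold to at least 46.5-fold higher in macrophages. Tcap, which caps titin, had ratios of 85.2 to 146, Ldb3 12.2 to 87.8 and Csrp3 27.6 to 70.8, on 1 or 2 monocyte reads each. Actn2, the actin cross-linker of the Z-disc, had 14.7 to 29.6 times and Des, the muscle intermediate filament, 6.97 to 25.8 times the monocyte level. Ttn, the giant spring of the sarcomere, had 2.31 to 10.9 times the monocyte level on 0 to 26 counts per library. Hspb7, a small heat shock protein of heart and muscle, had 36.1 to 124 times the monocyte level.

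Of the calcium-handling genes, Pln, which encodes phospholamban, the brake on SERCA2, had 59.95 to 181 times the monocyte level, while Atp2a2 had 0.940 to 1.07 times. Ryr2, the cardiac ryanodine receptor, was at least 4.06-fold to at least 7.65-fold higher. Casq2, the calcium store protein, was at least 3.43-fold to at least 26.0-fold higher. Neither passed the test in naive R1, with 13, 0 and 0 counts of Ryr2 (edgeR adjusted p = 0.0778) and 8, 0 and 3 of Casq2 (adjusted p = 0.0878). Ryr2 did not pass in CAWS R3 either (adjusted p = 0.0828). Mb, the oxygen store myoglobin, stood out among the energy genes at 205 to 471 times the monocyte level. The muscle creatine kinase Ckm had 5.70 to 21.1 times and the fatty acid carrier Fabp3 5.87 to 12 times the monocyte level. The mitochondrial creatine kinase Ckmt2 was at least 6.01-fold to at least 15.6-fold higher and the heart form of a cytochrome oxidase subunit, Cox6a2, at least 24.7-fold to at least 45.2-fold higher. Nppa, the atrial natriuretic peptide, was at least 38.9-fold to at least 171-fold higher, and Nppb, the B-type peptide, was at least 3.34-fold higher in naive R2, on 13 counts, and lay at or near the floor in the other groups, with 0 to 6 counts each. Eno3 had 0.357 to 0.933 times its monocyte level. Intervals, ratios and floors here cover counting error only.

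**Figure D2:**
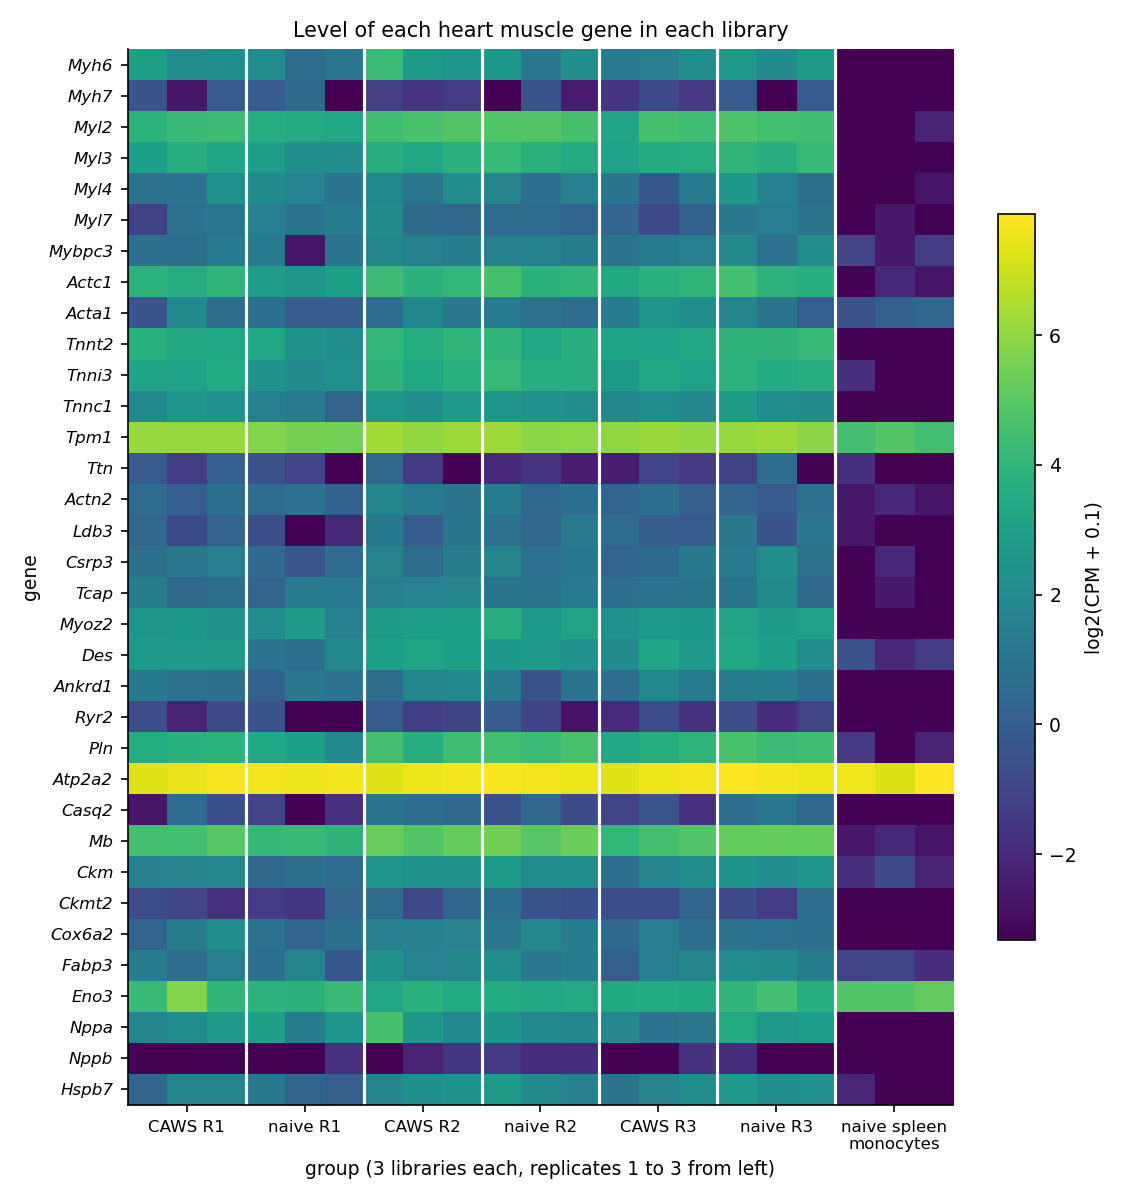
Level of each of the 34 heart muscle genes in each of the 21 libraries, as log2 of CPM plus 0.1, with genes in rows and libraries in columns. Most rows are near the floor in the 3 monocyte columns, while the Atp2a2, Tpm1 and Eno3 rows are filled throughout.

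Levels were compared between genes per unit of gene length. In naive R2 the mean levels, in TPM, which divides counts by the deposited gene lengths, were 89.95 for Myl2, 75.2 for Atp2a2, 65.3 for Mb, 42.8 for Tpm1, 37.3 for Tnni3, 34.5 for Myl3, 27.6 for Actc1, 23.0 for Tnnt2 and 19.1 for Pln (n = 3). In naive R1 Myl2 averaged 43.3 TPM and Mb 33.0 TPM. The levels of Ttn and Ryr2 in naive R2 were 0.00304 and 0.0515 TPM. Across the 31 genes that are not abundant in monocytes, length and mean TPM ran in opposite directions, with a Spearman rho of −0.70 to −0.59 in the 6 macrophage groups, against −0.22 to −0.13 over all 13275 genes tested. These are correlations across genes, which are not independent replicates, and both axes use the same lengths. The order of the 31 genes by mean TPM was alike between macrophage groups, with rho of 0.91 to 0.99 over 15 pairs of groups.

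**Figure D3:**
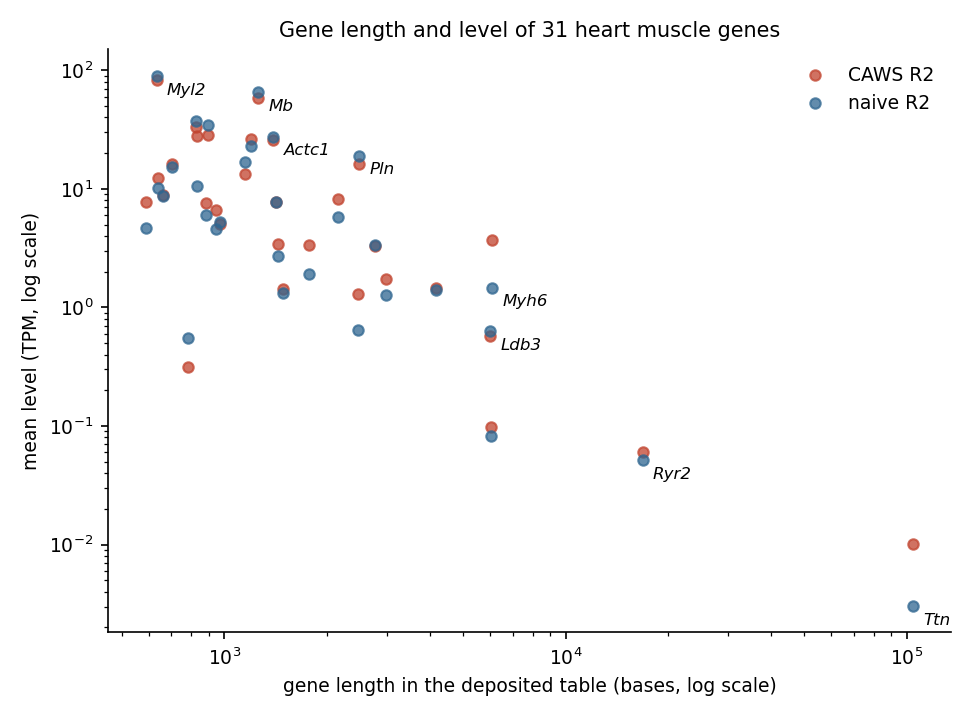
Gene length in bases against mean TPM for the 31 heart muscle genes that are not abundant in monocytes, in CAWS R2 and naive R2, both axes on a log scale. Points are genes; the short genes Myl2 and Mb lie at the top and Ttn, with a length of 104320 bases in the table, at the bottom right.

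In naive hearts, 14 of the 34 heart muscle genes rose and none fell in R2 against R1, while 3.88% of all genes tested rose. The median log2 fold change was 0.80 over the heart muscle genes and 0.00 over all genes. Mb had 44.7, 31.4 and 39.9 CPM in naive R2, against 17.6, 18.2 and 15.2 CPM in naive R1. The groups did not overlap, and Mb was 1.19 ± 0.16 higher on the log2 scale (edgeR's quasi-likelihood test, two-sided, Benjamini-Hochberg adjusted p = 2.2e-05). Tnni3 had 18.1, 12.3 and 13.3 CPM in naive R2 and 5.19, 3.72 and 4.81 CPM in naive R1, a log2 difference of 1.66 ± 0.23 (adjusted p = 3.64e-05). Myl2 had 27.9, 28.7 and 24.2 CPM in naive R2 and 12.2, 11.4 and 10.2 CPM in naive R1, a log2 difference of 1.25 ± 0.23 (adjusted p = 0.000732). Neither gene overlapped between the groups.

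By role, the naive R2 genes that rose were 2 of 7 myosin genes (Myl2, Myl3), 5 of 6 thin filament genes (Actc1, Tnnt2, Tnni3, Tnnc1, Tpm1), 3 of 8 Z-disc and cytoskeletal genes (Ldb3, Myoz2, Des), 1 of 4 calcium-handling genes (Pln), 2 of 6 energy genes (Mb, Ckm) and Hspb7. Log2 differences in these 14 genes ran from 0.43 ± 0.12 in Tpm1 to 2.81 ± 0.69 in Ldb3, where naive R1 held 0 to 0.544 CPM. Each naive R2 library was above each naive R1 library for 16 of the 34 genes, against 14.4% of all genes tested. Myl7 went the other way in each library, with 1.40, 1.42 and 1.10 CPM in naive R2 and 2.77, 1.86 and 2.47 CPM in naive R1, but did not pass the test (log2 −0.88 ± 0.45, adjusted p = 0.31). Eno3 was also lower in each library, with 10.006 to 11.8 CPM in naive R2 and 14.4 to 18.8 CPM in naive R1, and did not pass (log2 −0.53 ± 0.35, adjusted p = 0.457). Myl2, Myl3, Actc1, Tnni3, Pln, Mb and Ckm passed in every alternative run. The count of 14 fell to 8 without naive R1 replicate 3 or naive R2 replicate 1 and to 9 without naive R1 replicate 2.

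Naive R3 shared the naive R1 libraries as its reference, so its values are given on their own. Of the 34 genes, 16 rose and none fell in naive R3 against naive R1, while 12.5% of all genes tested rose, and each naive R3 library was above each naive R1 library for 15 genes, against 19.7% of all genes. The median log2 fold change was 0.96, against 0.03 over all genes. Mb had 37.5, 36.8 and 37.2 CPM in naive R3 and the 15.2 to 18.2 CPM of naive R1 given above, a log2 difference of 1.13 ± 0.16 (adjusted p = 1.18e-05). Pln had 25.4, 19.96 and 20.6 CPM in naive R3 and 10.1, 7.76 and 3.67 CPM in naive R1, a log2 difference of 1.58 ± 0.25 (adjusted p = 3.52e-05). Both genes were higher in each naive R3 library. Casq2 and Csrp3, a muscle LIM protein, were among the 16, with log2 differences of 2.88 ± 0.73 (adjusted p = 0.00528) and 1.35 ± 0.44 (adjusted p = 0.0271). The others were Myl2, Myl3, Actc1, Tnnt2, Tnni3, Tnnc1, Tpm1, Ldb3, Myoz2, Des, Mb, Pln, Ckm and Hspb7. With the pool as a block, Myoz2 no longer passed (adjusted p = 0.0624) and Myh6 did (adjusted p = 0.0425).

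Markers of other heart cells were followed in the same comparisons. Against naive R1, 3.88% of all genes tested rose in naive R2 and 12.5% in naive R3, and the shares that fell were not counted. The 8 smooth muscle and pericyte markers summed to 27.1 to 40.0 CPM in naive R2 and 22.0 to 134 CPM in naive R3, against 7.68 to 18.4 CPM in naive R1. Of the 7 that were tested none rose in naive R2 and 4 rose in naive R3 (Acta2, Tagln, Rgs5, Pdgfrb), and Kcnj8 was at 0 in naive R1. The 10 fibroblast markers, most of whose sum was Gsn, a gene that macrophages also express, summed to 332 to 365 CPM in naive R2 and 492 to 1035 CPM in naive R3, against 323 to 366 CPM in naive R1. None rose in naive R2 and 5 rose in naive R3, among them Col1a1, with 19.99 CPM in naive R3 and 1.68 CPM in naive R1. The 10 endothelial markers summed to 13.9 to 18.4 CPM in naive R2 and 17 to 32.3 CPM in naive R3, against 12.6 to 15.6 CPM in naive R1. Of the 9 tested, none rose and 1 fell in naive R2, and 4 rose and 1 fell in naive R3. In splenic monocytes the sums averaged 20.7 CPM for the smooth muscle and pericyte, 378 CPM for the fibroblast and 102 CPM for the endothelial markers. Each of these lists thus also had reads in cells from the spleen. The part of these markers in the heart muscle result was not tested.

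Naive R3 and naive R2 did not differ in any heart muscle gene by edgeR at an adjusted p under 0.05, where 12.4% of all genes tested changed. At an unadjusted p under 0.05 there was 1 gene, Casq2, with 1.5, 2.12 and 1.19 CPM in naive R3 and 0.587, 1.19 and 0.485 CPM in naive R2 (log2 1.16 ± 0.53, adjusted p = 0.169). DESeq2 called 0 and the fit to the compared groups alone called 2. Without CAWS R1 replicate 2 the count was 1.

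In CAWS-challenged mice, R1 macrophages held higher levels of 9 of these transcripts than R1 macrophages of naive mice. The other 25 did not pass or were not tested and none fell, while 6.07% of all genes tested rose, and each CAWS R1 library was above each naive R1 library for 11 genes, against 16.1% of all genes. The log2 fold change was positive for 25 of the 33 tested genes, with a median of 0.72 against 0.03 over all genes. At an unadjusted p under 0.05 there were 13. Actc1 had 14.8, 12.6 and 16.2 CPM in CAWS R1 and 7.72, 5.90 and 7.74 CPM in naive R1, with no overlap, a log2 difference of 1.03 ± 0.24 (edgeR adjusted p = 0.00765). It was the 1 gene that passed without each library in turn and in every other alternative run, with a highest adjusted p of 0.0491.

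The thin filament gave 4 of the 9 genes out of its 6. Beside Actc1, Tnni3 had 8.62, 8.30 and 11.4 CPM in CAWS R1 and 5.19, 3.72 and 4.81 CPM in naive R1 (log2 1.04 ± 0.25, adjusted p = 0.00937). Tnnc1 had 3.68, 5.80 and 4.97 CPM in CAWS R1 and 2.72, 2.30 and 1.07 CPM in naive R1 (log2 1.20 ± 0.31, adjusted p = 0.0197). Tpm1, which monocytes also express, had 70.0, 68.1 and 70.2 CPM in CAWS R1 and 54.6, 47.3 and 46.3 CPM in naive R1 (log2 0.49 ± 0.12, adjusted p = 0.0122). In all 3 genes the CAWS R1 libraries were above the naive R1 libraries. Tnnt2 overlapped, with 13.5, 10.6 and 9.999 CPM in CAWS R1 and 10.4, 5.03 and 4.67 CPM in naive R1, and did not pass (log2 0.72 ± 0.26, adjusted p = 0.0937).

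Of the other roles, 1 of 7 myosin genes rose, which was Myl3 (log2 0.82 ± 0.25, adjusted p = 0.0476). Myl2 had 15.1, 18.6 and 19.998 CPM in CAWS R1 and 12.2, 11.4 and 10.2 CPM in naive R1, apart in each library, and missed the threshold (log2 0.66 ± 0.23, adjusted p = 0.0778). Des rose as 1 of 8 Z-disc and cytoskeletal genes, with 6.31, 6.27 and 6.80 CPM in CAWS R1 and 1.83, 1.68 and 3.67 CPM in naive R1 (log2 1.47 ± 0.35, adjusted p = 0.0103). This was the widest log2 difference among the 9. Pln rose as 1 of 4 calcium-handling genes (log2 0.89 ± 0.26, adjusted p = 0.0305), and Mb (log2 0.57 ± 0.17, adjusted p = 0.0303) and Ckm (log2 1.15 ± 0.35, adjusted p = 0.041) as 2 of 6 energy genes. Of the other genes that did not pass, Nppa had 3.42, 4.29 and 6.55 CPM in CAWS R1 and 8.01, 2.54 and 5.67 CPM in naive R1 (log2 −0.21, adjusted p = 0.891). Myl7 had a log2 difference of −0.81 ± 0.46 (adjusted p = 0.309) and Myl4 of −0.08 ± 0.47 (adjusted p = 0.949), and the CAWS R1 and naive R1 libraries overlapped in all 3. The count of 9 fell to 1 without naive R1 replicate 2, to 3 without naive R1 replicate 3, to 4 without CAWS R1 replicate 3 and to 5 without CAWS R1 replicate 2.

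Beside the R1 result, the smooth muscle and pericyte markers summed to 22.8 to 29.8 CPM in CAWS R1, against 7.68 to 18.4 CPM in naive R1. Of the 7 tested, Pdgfrb rose (log2 2.41, adjusted p = 0.0138). Of all genes tested, 6.07% rose in CAWS R1 against naive R1. The fibroblast markers summed to 499 to 509 CPM in CAWS R1 and 323 to 366 CPM in naive R1, where Gsn alone of the 10 rose, with 477 CPM in CAWS R1 and 317 CPM in naive R1. Endothelial markers summed to 17.7 to 27.9 CPM in CAWS R1 and 12.6 to 15.6 CPM in naive R1, and of the 9 tested Pecam1 rose and Egfl7 fell. Their part in the result was not tested.

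In R2 no heart muscle gene passed the test between CAWS-challenged and naive mice, where 10.3% of all genes tested changed. Median log2 fold changes were 0.11 over the heart muscle genes and 0.02 over all genes. At an unadjusted p under 0.05 edgeR gave 2 genes, Myh6 and Nppa, and DESeq2 called 1 at its adjusted p. Myh6 had 19.8, 6.83 and 5.81 CPM in CAWS R2 and 6.19, 2.10 and 4.41 CPM in naive R2 (log2 1.29 ± 0.46, adjusted p = 0.0861). Nppa had 24.3, 5.91 and 3.59 CPM in CAWS R2 and 5.51, 3.64 and 3.35 CPM in naive R2 (log2 1.39 ± 0.57, adjusted p = 0.147). Both groups overlapped, and CAWS R2 replicate 1 was far above the other libraries in both genes. The smooth muscle and pericyte sum was also highest there, at 99.97 CPM against 32.8 and 33.2 CPM in the other CAWS R2 libraries. Mb had 37.8, 29.5 and 37.4 CPM in CAWS R2 and 44.7, 31.4 and 39.9 CPM in naive R2. Without CAWS R2 replicate 3, 2 genes passed as higher.

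In R3 most heart muscle genes had lower levels after CAWS, but few passed the test. Of the 34 genes, 3 fell and none rose, while 8.29% of all genes tested fell, a share close to that of the 34. Each CAWS R3 library was below each naive R3 library for 10 genes, against 18.5% of all genes. The log2 fold change was negative for 28 of the 33 tested genes, with a median of −0.58 against −0.06 over all genes, and 11 had an unadjusted p under 0.05. Mb had 16.7, 23.8 and 28.2 CPM in CAWS R3 and 37.5, 36.8 and 37.2 CPM in naive R3 (log2 −0.69 ± 0.16, adjusted p = 0.00509). Tnnt2 had 8.98, 8.53 and 10.7 CPM in CAWS R3 and 15.5, 15.2 and 18.1 CPM in naive R3 (log2 −0.78 ± 0.25, adjusted p = 0.041). Pln had 10.6, 12.5 and 16 CPM in CAWS R3 and 25.4, 19.96 and 20.6 CPM in naive R3 (log2 −0.74 ± 0.24, adjusted p = 0.037). In these 3 genes no CAWS R3 library reached the lowest naive R3 library.

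Short of the threshold in R3 were Casq2 (log2 −1.95 ± 0.67, adjusted p = 0.0518) and Tnni3, with 6.72, 9.95 and 8.41 CPM in CAWS R3 and 14.8, 11.7 and 12.3 CPM in naive R3 (log2 −0.63 ± 0.23, adjusted p = 0.0628). Acta1, the skeletal actin, had a positive difference, with 2.50, 5.76 and 4.54 CPM in CAWS R3 and 3.36, 1.89 and 0.926 CPM in naive R3 (log2 1.03 ± 0.46, adjusted p = 0.141). Actc1 had 10.9, 13.6 and 16 CPM in CAWS R3 and 22.5, 14.9 and 12.6 CPM in naive R3, with overlap. CAWS R3 replicate 1 was the lowest CAWS R3 library for Mb, Myl2 and Actc1, and without it none of the 34 genes passed, with Mb at an adjusted p of 0.0791. The count was 1 without CAWS R3 replicate 2, any 1 of the naive R3 replicates, naive R2 replicate 2 or monocytes replicate 1.

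Beside the R3 result, the smooth muscle and pericyte markers summed to 14.7 to 61.3 CPM in CAWS R3 and 22.0 to 134 CPM in naive R3, and none of the 7 tested passed. Of the 10 fibroblast markers 3 fell (Col1a1, Col1a2, Postn), where 8.29% of all genes tested fell. The fibroblast sums were 725 to 790 CPM in CAWS R3 and 492 to 1035 CPM in naive R3. None of the 9 endothelial markers tested passed, with sums of 22.8 to 24.6 CPM in CAWS R3 and 17 to 32.3 CPM in naive R3. The part of all these markers in the R3 result was not tested.

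**Figure D4:**
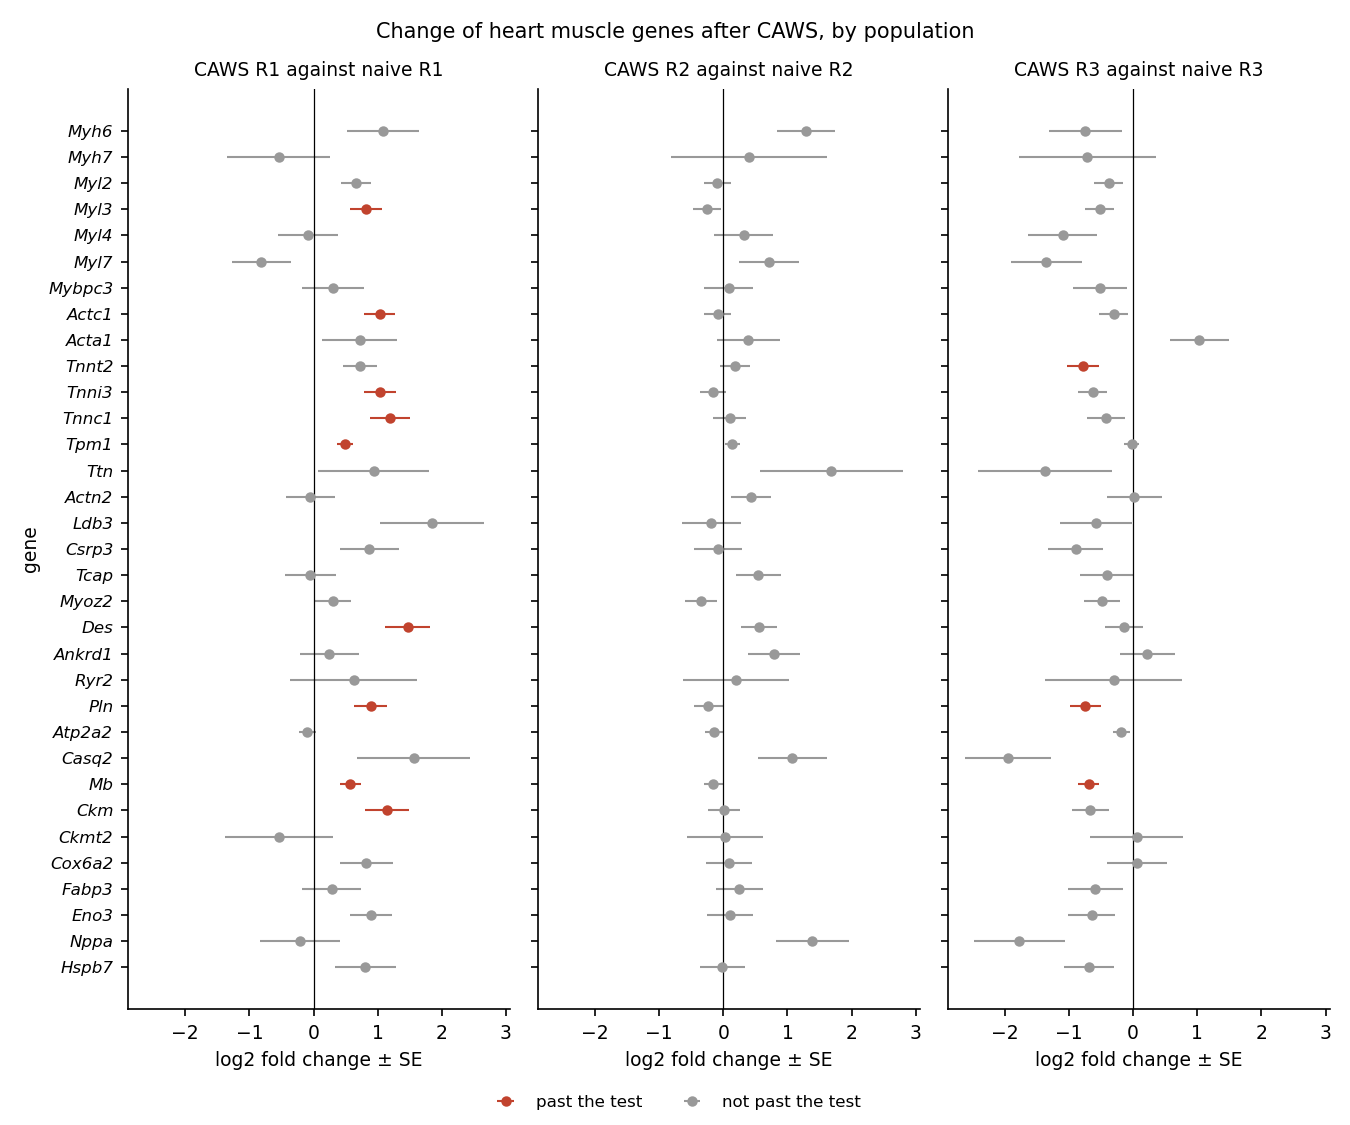
Log2 fold change of CAWS over naive for the 33 tested heart muscle genes, in panels for R1, R2 and R3, with bars of 1 standard error and genes past the test in red. In R1 9 genes are red and to the right of 0, in R2 none is red, and in R3 3 are red and to the left of 0.

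The difference between populations in the CAWS effect was tested as an interaction. The CAWS effect was lower in R3 than in R1 for 7 of the 34 genes and higher for none, while 2.16% of all genes tested were lower, and the median difference was −1.27 on the log2 scale against −0.08 over all genes. Mb had a log2 effect of −0.69 in R3 and 0.57 in R1, a difference of −1.27 ± 0.23 (adjusted p = 0.00191). Tnni3 had −0.63 in R3 and 1.04 in R1, a difference of −1.67 ± 0.34 (adjusted p = 0.00469). Pln had −0.74 in R3 and 0.89 in R1, a difference of −1.64 ± 0.35 (adjusted p = 0.00851). These 3 passed in every alternative run and without each library in turn.

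The other 4 were 2 further sarcomere proteins of the thin filament, Actc1 (−1.33 ± 0.33, adjusted p = 0.0257) and Tnnt2 (−1.51 ± 0.36, adjusted p = 0.0285), the light chain Myl3 (−1.34 ± 0.34, adjusted p = 0.0422) and the creatine kinase Ckm (−1.81 ± 0.45, adjusted p = 0.0315). With the pool as a block, Myl2 (adjusted p = 0.0278) and Tnnc1 (adjusted p = 0.0351) passed too, which made 9. The count of 7 fell to 3 without CAWS R3 replicate 1, naive R1 replicate 2 or naive R1 replicate 3, and to 4 without CAWS R1 replicate 2, naive R3 replicate 1 or monocytes replicate 3. In the same interaction 1 of the 7 tested smooth muscle and pericyte markers was lower, where 2.16% of all genes tested were. None of the fibroblast or endothelial markers passed. None of the 34 genes differed in CAWS effect between R2 and R1, where 0.0527% of all genes tested did, nor between R3 and R2, where 2.33% did. At an unadjusted p under 0.05 by edgeR there were 11 and 6 genes, and DESeq2 called 0 between R2 and R1 and 1 between R3 and R2. With the pool as a block, Myh6 (adjusted p = 0.0462) and Nppa (adjusted p = 0.0392) were lower in CAWS effect in R3 than in R2, and 1 gene was without CAWS R1 replicate 1 or CAWS R2 replicate 3.

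Among the macrophages of CAWS-challenged mice, few heart muscle genes differed between populations. In CAWS R2 against CAWS R1 1 of the 34 genes passed, where 3.77% of all genes tested changed. This was Eno3, with 10.1, 14.2 and 11.4 CPM in CAWS R2 and 19.2, 54.7 and 16.3 CPM in CAWS R1 (log2 −1.32 ± 0.34, adjusted p = 0.0315). CAWS R1 replicate 2 was far above the rest, and Eno3 no longer passed without it, without any 1 of the CAWS R2 replicates or without monocytes replicate 2. In CAWS R3 against CAWS R1 Eno3 was the 1 gene that passed, where 29.4% of all genes tested changed, with 10.9, 11.5 and 11.1 CPM in CAWS R3 (log2 −1.42 ± 0.35, adjusted p = 0.00433). These 2 comparisons share the CAWS R1 libraries. Acta1 was next, with 2.50, 5.76 and 4.54 CPM in CAWS R3 and 0.631, 3.77 and 1.42 CPM in CAWS R1 (adjusted p = 0.059), and it passed with the pool as a block (adjusted p = 0.00562). The count was 2 without CAWS R1 replicate 2, CAWS R2 replicate 2, CAWS R3 replicate 1 or any 1 of the monocyte replicates.

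CAWS R3 was lower than CAWS R2 in 3 of the 34 genes, while 9.76% of all genes tested were lower, again a share close to that of the 34. Each CAWS R3 library was below each CAWS R2 library for 13 genes, against 20.7% of all genes. Mb had 16.7, 23.8 and 28.2 CPM in CAWS R3 and 37.8, 29.5 and 37.4 CPM in CAWS R2 (log2 −0.60 ± 0.16, adjusted p = 0.0128). Myh6 (log2 −1.65 ± 0.52, adjusted p = 0.0384) and Nppa (log2 −2.17 ± 0.68, adjusted p = 0.0425) were the others, both with their highest level of all libraries in CAWS R2 replicate 1. None of the 3 passed without CAWS R2 replicate 1 or CAWS R3 replicate 1. The count was 1 without CAWS R1 replicate 2, CAWS R3 replicate 2, monocytes replicate 2 or naive R1 replicate 3.

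The make-up of the trace was steadier for some genes than for others. Over the 18 macrophage libraries, Mb took 14.3% to 19.7% of the counts of the 31 genes, Myl2 8.26% to 15.5%, Actc1 6.11% to 10.2%, Myl3 4.79% to 8.74%, Tnnt2 5.26% to 9.26% and Tnni3 3.99% to 7.17%. Nppa took 1.11% to 9.29% and Myh6 1.13% to 7.57%, both with the highest share in CAWS R2 replicate 1. Myl7 took 0.252% to 2.88%, Myl4 0.462% to 3.34% and Pln 4.28% to 12.5%.

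In the healthy adult mouse heart Nppa, Myl7 and Myl4 are made mostly in the atria and Myl2 mostly in the ventricles, while Nppa is also known to be induced in stressed ventricles. Counts of these genes were set against each other within a library, and what sets the ratios was not tested. Nppa counts per 100 Myl2 counts were 22.6, 23.1 and 32.7 in CAWS R1 and 65.9, 22.4 and 55.6 in naive R1. They were 113, 23.6 and 12.4 in CAWS R2 and 19.7, 12.7 and 13.8 in naive R2. They were 38.1, 7.34 and 10.1 in CAWS R3 and 42.2, 28.1 and 33.7 in naive R3. The CAWS and naive libraries overlapped in each population, and replicates of 1 group differed by up to several times. Myl7 counts per 100 Myl2 counts were 2.43, 9.38 and 9.90 in CAWS R1 and 22.8, 16.4 and 24.2 in naive R1, with no overlap. They were 18.4, 5.41 and 4.34 in CAWS R2 and 5.02, 4.95 and 4.55 in naive R2, where replicate 1 of CAWS R2 again stood apart. They were 12.7, 1.83 and 4.87 in CAWS R3 and 7.92, 12 and 8.59 in naive R3. Myl4 counts per 100 counts of Myl3, which the ventricles make, were 22.1, 14.6 and 51.4 in CAWS R1 and 52.3, 66.7 and 42.4 in naive R1. This ratio overlapped between the groups, unlike Myl7 over Myl2. It was 28.4, 19.7 and 29.1 in CAWS R2 and 17.3, 11.3 and 23.97 in naive R2. It was 22.5, 6.49 and 18.6 in CAWS R3 and 38.5, 22.5 and 8.79 in naive R3, and overlapped in both populations. No test was made on these ratios.

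**Figure D5:**
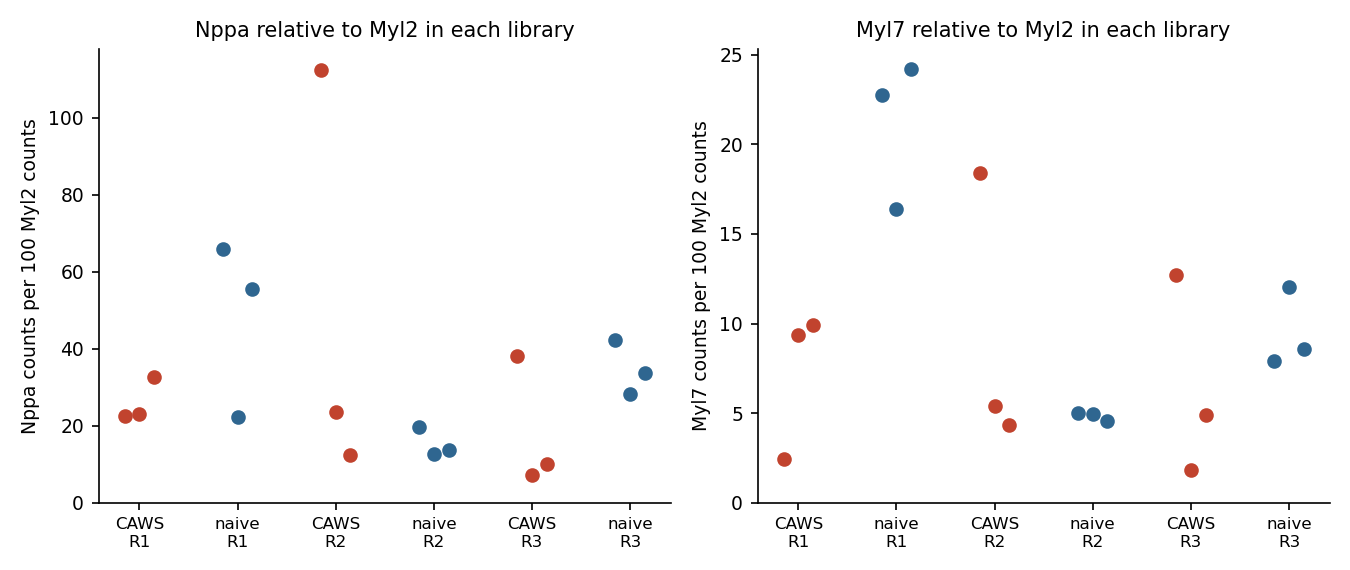
Counts of Nppa and of Myl7 per 100 counts of Myl2 in each of the 18 macrophage libraries, by group. Points are libraries; CAWS R2 replicate 1 has 113 Nppa counts per 100 Myl2 counts, and the 3 naive R1 libraries have 16.4 to 24.2 Myl7 counts per 100.

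The start regions of 31 of the genes were searched for 4 motifs known from muscle and other promoters. In 10 of the 31 none of the 4 was found (Actn2, Ckm, Ckmt2, Csrp3, Des, Fabp3, Mb, Myl4, Ryr2, Tnni3), and in Myl2, Nppa and Pln only TATAAA was. Some genes had 2 or 3 start regions, and a match in any of them counted. The 2 regions shown, of Actc1 and Myl3, were taken from the genes with matches and do not stand for the others. They cover 250 bases before and 50 bases after the start of the gene, 5′ to 3′ along the gene, from RefSeq GRCm38.p6 (mm10). Capitals mark motif letters that were found by search.
Actc1, chr2:114052826-114053125, minus strand: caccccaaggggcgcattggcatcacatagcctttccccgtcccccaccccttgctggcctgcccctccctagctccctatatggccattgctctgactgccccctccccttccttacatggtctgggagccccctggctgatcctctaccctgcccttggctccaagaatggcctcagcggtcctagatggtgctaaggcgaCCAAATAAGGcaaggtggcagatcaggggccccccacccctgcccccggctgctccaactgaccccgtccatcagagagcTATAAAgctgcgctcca
Myl3, chr9:110763428-110763727, plus strand: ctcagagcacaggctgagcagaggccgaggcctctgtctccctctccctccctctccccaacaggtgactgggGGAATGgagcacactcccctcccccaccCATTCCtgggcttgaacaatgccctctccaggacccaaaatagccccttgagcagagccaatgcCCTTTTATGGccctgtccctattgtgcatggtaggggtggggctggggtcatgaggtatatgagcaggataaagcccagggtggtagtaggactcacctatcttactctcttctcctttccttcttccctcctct
The CArG box, the site of serum response factor, was found in 5 of the 31 genes with a promoter entry (Acta1, Actc1, Ldb3, Myl3, Myl7), or 16.1%, against 1.81% of 27025 genes. The MEF2 site, bound by the MEF2 muscle factors, was found in 4 of 31, or 12.9%, against 3.7% of all genes. CATTCC, the site of TEAD factors, was found in 13 of 31, or 41.9%, against 16.6%, and TATAAA in 7 of 31, or 22.6%, against 15.7%. Both strands were searched, and the letters of TATAAA and the MEF2 site can overlap. A match is a description of letters and says nothing of binding in these cells.

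Other muscle genes outside the 34 were followed as lists. Of 32 further sarcomere and excitation-contraction genes, 25 were tested, and those higher than in monocytes numbered 19 for CAWS R1, 21 for CAWS R2, 21 for CAWS R3, 14 for naive R1, 18 for naive R2 and 20 for naive R3. The shares of all genes tested that were higher, given above, were 24.8% to 33.1%, and list genes absent from monocytes passed the filter on low counts through the macrophages alone. Against naive R1, CAWS R1 had 4 of them higher and none lower, where 6.07% of all genes tested were higher. Among the 4 were Myom1, a cross-linker of the sarcomere M-band, at 37.1 CPM in CAWS R1 and 16 CPM in naive R1 (log2 1.21 ± 0.16, adjusted p = 6.37e-05), and Xirp1, an actin-binding repair protein (log2 3.82 ± 0.70, adjusted p = 0.00075). In R2, 2 were higher in CAWS than in naive mice (Myom1, Fbxo32) and none lower, where 10.3% of all genes tested changed. In R3 none was higher and 1 lower, a smaller share than the 8.29% of all genes tested. This gene was Sln, the atrial sarcolipin, at 0.272 CPM in CAWS R3 and 1.42 CPM in naive R3 (log2 −2.40 ± 0.58, adjusted p = 0.00714). Naive R2 had 2 higher and 1 lower than naive R1, where 3.88% of all genes tested were higher, and naive R3 3 higher and 2 lower, where 12.5% were higher.

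Of 20 heart mitochondrial and fatty acid genes, most of which all cells use, 19 were tested. None passed between CAWS R1 and naive R1. In R2, 2 were higher in CAWS than in naive mice (Acadl, Cs), where 10.3% of all genes tested changed. In R3, 1 was lower (Pdk4, log2 −2.53 ± 0.60, adjusted p = 0.00641), where 8.29% of all genes tested were lower. Against monocytes 2 to 5 of the mitochondrial list were higher and 8 lower in each macrophage group. Of all genes tested 24.8% to 33.1% were higher, and the share that was lower was not counted. Of 9 cardiac transcription factors, 4 had enough counts to test, and 3 or 4 were higher than in monocytes in each macrophage group, where 24.8% to 33.1% of all genes tested were. With 1 to 4 counts over the 9 genes in each monocyte library, they passed the filter on low counts through the macrophages, so this count describes and does not support. None of the 4 passed between CAWS and naive mice in any population, and their sum over the 9 stayed between 2.66 and 6.58 CPM in the macrophage libraries. The 18 non-muscle counterparts of the sarcomere genes, such as Actb and Vim, summed to 7842 to 11050.5 CPM in the CAWS macrophage libraries and 7535 to 10623 CPM in the naive ones. Vim, the intermediate filament of non-muscle cells, rose with CAWS in each population, at log2 1.27 ± 0.13 in R1 (adjusted p = 1.12e-06), 1.62 ± 0.13 in R2 (adjusted p = 1.28e-08) and 0.95 ± 0.12 in R3 (adjusted p = 1.67e-05). The log2 differences of its muscle relative Des were 1.47 ± 0.35 in R1 (adjusted p = 0.0103), 0.55 ± 0.28 in R2 (adjusted p = 0.239) and −0.14 ± 0.30 in R3 (adjusted p = 0.789). Red cell markers, 6 genes, summed to 0 to 5.12 CPM in macrophage libraries and 9.13 to 74.6 CPM in monocyte libraries.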

How the data were processed

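Read counts per gene were deposited for 21 libraries, made by the authors with featureCounts on mm10, per the submitters' processing notes, from RNA isolated with the RNeasyPlus Mini kit and TruSeq RNA libraries, per the labels' protocols. No aligner, annotation release, strand setting or version is named in those sources. All 21 per-sample files matched the combined table exactly. RefSeq GRCm38.p6 gave symbols to 25275 of 27179 IDs and none to 1904.

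From the counts, edgeR 4.0.16 in R 4.3.3 (with limma 3.58.1) was fitted to all 21 libraries with 1 mean per group (quasi-likelihood, robust, TMM factors 0.909 to 1.06, 14 residual degrees of freedom) after a filter at a minimum count of 10 and a minimum total of 15. All tests are two-sided, with Benjamini-Hochberg adjusted p under 0.05 over 13275 genes, and ± after a log2 fold change is the standard error. TPM was computed from the counts and the deposited gene lengths. Levels in groups with no read were set against a floor of 3 counts over the group, and ratios on few reads have exact 95% intervals, both for counting error only. Pairs of libraries from the same group were compared by a chi-square, divided by its degrees of freedom. It was 10.2 to 50.5 in macrophage pairs and 34.1 to 137 in monocyte pairs. Over whole libraries, counting error was thus small beside the spread within a group. These values do not show the same for heart muscle genes of few reads, such as Ttn, Ryr2 and Casq2. DESeq2 1.42.0, other scaling, no filter, the older edgeR fit, only the compared groups, the replicate block and each library left out were alternatives.

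All 34 genes may be named; other lists give the genes that passed, by smallest p, and of the 10 genes whose level was most like the summed level, 1 is not reported here. The genes, the lists and the rules were chosen with earlier results of these data known. The labels state that each pool was divided into the 3 populations. Within a treatment, deviations of same-numbered libraries from their group means, over 7064 genes with mean log2 CPM over 4, correlated at 0.15 to 0.64 (18 pairs) and those of other libraries at −0.63 to 0.13 (36 pairs), so the number was read as the pool within a treatment. Across treatments, pools are different mice.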

Additional observations from a re-analysis of the deposited data

Results flagged for a closer look

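In 7 genes the CAWS effect differed between R3 and R1 by the interaction term (edgeR adjusted p under 0.05), with the effect in R3 lower in each. The log2 difference was −1.27 in Mb, −1.33 in Actc1, −1.34 in Myl3, −1.51 in Tnnt2, −1.64 in Pln, −1.67 in Tnni3 and −1.81 in Ckm. With the pool as a block, Myl2 (adjusted p = 0.0278) and Tnnc1 (adjusted p = 0.0351) passed as well. In all 7 the fold change was negative in R3 and positive in R1. Markers of other heart cells are given with each comparison, and their part was not tested. Groups of 3 libraries were too small for a search for single outlying samples.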

How the results depend on the processing

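Over all comparisons 229 calls were made on the heart muscle genes, of which 183 were kept in every one of 7 other settings and with each of 21 libraries left out, and 0 reversed. Counts of genes past the test that moved were as follows. DESeq2 called 1 gene between CAWS R2 and naive R2 and 1 in the R3 minus R2 interaction. Without the filter on low counts, CAWS R2 against CAWS R1 had 0 and CAWS R3 against CAWS R2 had 1. With only the compared groups fitted, CAWS R3 against naive R3 had 5, naive R3 against naive R2 had 2, CAWS R2 against CAWS R1 had 0 and the R3 minus R2 interaction had 1. Without the 3 genes that monocytes hold, a choice added after the data were seen, CAWS R2 and CAWS R3 against CAWS R1 had 0 each. With the replicate block, the R3 minus R2 interaction had 2 and CAWS R3 against CAWS R1 had 2. Between treatments the replicate number is no pairing, and a block on it gave 1 in CAWS R2 against naive R2 (Myh6, adjusted p = 0.00947) and 6 in CAWS R3 against naive R3, where Tnni3, Casq2 and Nppa were added; in R1 Myl3 passed no longer (adjusted p = 0.0508) and Tnnt2 did (adjusted p = 0.0369). Libraries of 1 number in different treatments or in monocytes correlated at −0.30 to 0.70 over 45 pairs. In the block fit within treatments, Tnni3 (adjusted p = 0.0486) was added in CAWS R3 against CAWS R2; the other calls that the block moved stand in the text, and it changed no further call.

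With each library left out in turn, the counts ran from 1 to 9 in CAWS R1 against naive R1, 0 to 2 in R2 and 0 to 4 in R3. Against monocytes they ran from 26 to 30 in CAWS R1, 28 to 30 in CAWS R2, 27 to 30 in CAWS R3, 25 to 28 in naive R1, 28 to 29 in naive R2 and 27 to 31 in naive R3. They ran from 8 to 14 in naive R2 and 13 to 16 in naive R3 against naive R1, and from 0 to 1 in naive R3 against naive R2. In CAWS mice they ran from 0 to 1 in R2 against R1, 1 to 2 in R3 against R1 and 0 to 3 in R3 against R2. The interactions had 0 in R2 minus R1, 3 to 8 in R3 minus R1 and 0 to 1 in R3 minus R2. The summed level of all 34 genes had means of 428 to 467 CPM in CAWS R1, 485 to 509 in CAWS R2, 393 to 442 in CAWS R3, 349 to 369 in naive R1, 464 to 513 in naive R2, 487 to 536 in naive R3 and 233 to 272 in monocytes. Without Atp2a2, Tpm1 and Fabp3 the sums were 186, 232, 157, 113, 221, 233 and 33.4 CPM, and without the 3 genes that monocytes hold 159, 224, 148, 98.7, 213, 219 and 2.78 CPM, in that order. The cause of these changes was not tested. Depth limits the genes of few reads, such as Ttn, Ryr2, Myh7, Casq2 and Nppb, in which a difference may not be detectable.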

Other observations

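Of all genes tested outside the 34, genes whose level followed the summed level of the 31 heart muscle genes closely over the 18 macrophage libraries included Igf2bp3 (Spearman rho 0.89), Chst11 (0.87), Il1b (0.86), Basp1 (0.86), Trp53i11 (0.86), Ermap (0.85), Nes (0.84), Asb2 (0.84) and Ndrg2 (0.83). Asb2 is a muscle and blood cell ubiquitin ligase subunit, and Il1b is the inflammatory cytokine interleukin-1 beta. With the sum over all 34 genes, Igf2bp3 (0.85), Col27a1 (0.84) and Nes (0.83) were closest. These are descriptions over libraries that share pools and fall into 6 groups, they were picked from the highest of 13275 genes, and no p is given.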
